A study of Mus musculus with 9 samples.

Results

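Imprinted genes are transcribed mainly from the copy inherited from one parent, and most of them sit in domains in which a differentially methylated control region sets the state of several neighboring genes. CTCF binds several of these control regions, and at *H19-Igf2* it acts as the insulator that keeps enhancers from *Igf2* on the maternal copy. Imprinted genes are known above all for their part in embryonic and placental growth. They include brakes such as the cyclin-dependent kinase inhibitor *Cdkn1c*, the signaling adaptor *Grb10* and the IGF2 scavenger receptor *Igf2r*, and growth-associated genes such as *Peg3*, *Mest* and *Plagl1*.

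The genes described here are 37 imprinted genes that lie outside the *H19-Igf2* locus, taken by name from the deposited table. Of these, 36 were among the 14011 genes measured, and *Dio3* was not in the table. By textbook assignment, 17 of the 36 are expressed from the maternal allele, 15 from the paternal allele and 4 (*Gnas*, *Blcap*, *Inpp5f* and *H13*) from one or the other according to the transcript. For 12 of the 36 the parental bias is known only in some tissues. The table holds one total per gene and no information on alleles, so every value below is the sum over both parental copies.

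RNA was sequenced from mouse hearts at E10.5 in 3 genotypes with 3 libraries each, every library made from a pool of 6 hearts of a mixed strain. Homozygotes were *Ctcf* fl/fl; *Nkx2.5-Cre*/+, heterozygotes were *Ctcf* fl/+; *Nkx2.5-Cre*/+, and controls carried no Cre and were *Ctcf* fl/fl by the labels of the samples, while the study's text gives *Ctcf* fl/+. The embryos came from fathers with the Cre driver and *Ctcf* fl/fl mothers, by the study's description of its crosses. *Nkx2.5-Cre* recombines floxed alleles in cardiac progenitors and their descendants, and CTCF protein remains in the endocardium of homozygotes. A comparison with controls therefore includes the driver, and in whole hearts fewer cells of a type and less RNA per cell cannot be told apart.

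Values are the deposited normalized values, scaled to the size of each library, in which 1 read was worth between 0.0901 and 0.231 units, with 4294537 to 11629365 reads per library. *Ctcf* itself had a mean of 121 ± 0.837 (SD) in controls, 97.3 ± 3.26 in heterozygotes and 81.4 ± 2.85 in homozygotes. The homozygote mean was 67.0% of the control mean. Cardiomyocyte markers (8 genes) summed to between 18219 and 20837 in controls, between 20602 and 24257 in heterozygotes and between 16798 and 20430 in homozygotes. Endothelial markers (7 genes) summed to between 865 and 980 in controls and between 755 and 912 in homozygotes. Of these 7, 1 was called higher and 1 lower in homozygotes against controls. Of the 8 cardiomyocyte markers 1 was called lower in homozygotes against controls and 3 against heterozygotes, where their median log2 fold change was -0.33. All 6 erythroid markers were called higher in homozygotes, with sums from 28019 to 39829 in controls and from 49249 to 64930 in homozygotes. Of the 6 epicardial markers 4 were called higher (sums from 411 to 473 in controls and from 572 to 639 in homozygotes). Of the 5 cushion mesenchyme markers 1 was called lower, with sums from 229 to 253 in controls and from 166 to 198 in homozygotes. Of the 4 macrophage markers 1 was called lower. Their sums ran from 29.6 to 36.8 in controls, from 21.7 to 23.2 in heterozygotes and from 13.4 to 29.7 in homozygotes. The part of these cell types in the results below was not tested.

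Promoters were read for the imprinted genes from RefSeq (assembly GRCm38.p6) and placed in NCBIM37 by exact match, and 30 of the 36 had at least 1, with 44 promoters of 300 bases in all. Both strands were searched for a CTCF core, which runs CC, any 3 bases, AG, any 2 bases and GGC, and for the GC-rich motif GGGGCCCC bound by PLAGL1, itself an imprinted transcription factor. The CTCF core was found in 3 of the 44 promoters (6.82%), those of *Rian*, *Gnas* and *H13*, against 8.61% of all 32851 promoters. The PLAGL1 motif was found in 3 of the 44, and in 1.08% of all promoters, but *Peg3* and *Usp29*, which start close together in opposite directions, share a single site, at base 31 of *Usp29*, so that the 3 matches are 2 sites in the genome. The other site lies upstream of a start of *Ppp1r9a*. The sequences that carry these matches are shown 5′ to 3′ on the strand of the gene, with the match in capitals. For *Rian*, which has the match to the stricter form of the CTCF core and was called in the comparison with controls, the promoter is shown in full, and for the others 30 bases around the site.
Rian, promoter, chr12:110841905-110842204, plus strand: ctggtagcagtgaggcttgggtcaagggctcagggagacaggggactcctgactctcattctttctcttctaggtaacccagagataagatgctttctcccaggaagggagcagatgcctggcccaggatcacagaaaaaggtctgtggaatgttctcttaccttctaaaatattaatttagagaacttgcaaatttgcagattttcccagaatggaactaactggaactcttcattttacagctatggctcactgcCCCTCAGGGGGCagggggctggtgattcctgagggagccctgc
Ppp1r9a, PLAGL1 motif, chr6:4853111-4853140, plus strand: gcccggcgtggGGGGCCCCgcacgtgggcc
Peg3, PLAGL1 motif shared with Usp29, chr7:6683313-6683342, minus strand: gactctgcttgGGGGCCCCtaacactgact
H13, CTCF core, chr2:152495117-152495146, plus strand: ccctcaccgCCACCAGAGGGCgatcgggcg
Gnas, CTCF core on the opposite strand, chr2:174109660-174109689, plus strand: ttcccgcctGCCACCTGCCGGcccactagg
The match in *Rian* starts at base 8 of the transcript and also fits a stricter form in which both free bases after AG are G, which 1.28% of all promoters hold. A match describes letters in a window and is not a measured binding site. The 44 promoters had a median of 16.5 CpG sites against 7.0 over all promoters, and a median GC content of 58.2% against 52.7%.

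Imprinted genes were expressed over a wide range in the control hearts. Per kb of exon, the highest was *Mest*, an alpha/beta hydrolase family gene, with a level of 734 units per kb, followed by *Cdkn1c* with 628, *Igf2r* with 209 and *Grb10* with 178. *Cd81*, a tetraspanin, *Nap1l4*, a histone chaperone, and *Plagl1*, a zinc finger transcription factor, came next with 109, 106 and 105, and their control libraries overlapped. *Gnas*, which encodes the stimulatory G protein alpha subunit, stood at 96.1 and *Peg3*, a zinc finger gene, at 73.0. At the other end, *Rtl1*, a retrotransposon-derived gene of the placenta, stood at 0.158, *Magel2* at 0.276, *Slc22a3*, a cation transporter, at 0.625 and *Usp29*, a ubiquitin protease, at 0.686. The median level of the 36 genes was 16.9 units per kb, against 6.56 over the 13987 annotated genes of the table. Their median coefficient of variation between control libraries was 8.03%, against 7.89% over all genes. Their median control value was 68.0 against 25.7, and the spread was not compared at a matched level.

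**Figure D1:**
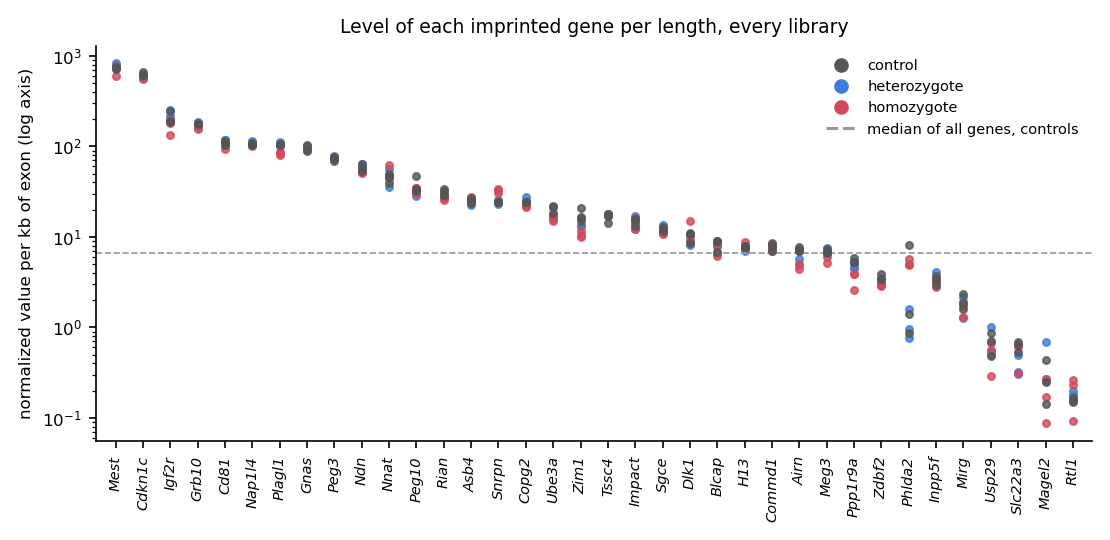
Normalized value per kb of exon (log axis) of the 36 imprinted genes in each of the 9 libraries, ordered by the control mean, with the control median of all annotated genes (6.56) as a dashed line. Points of the 3 genotypes lie close together for most genes from *Mest* (734) to *Rtl1* (0.158), and *Phlda2* spreads widely within controls.

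Homozygotes were compared with controls to see which imprinted genes changed when CTCF was lost. A single gene, *Snrpn*, rose, and 6 fell: *Zim1*, *Ppp1r9a*, *Ube3a*, *Plagl1*, *Zdbf2* and *Rian* (limma, adjusted p under 0.05 over all 14011 genes). The falls ranged from 0.22 in *Rian* to 0.68 in *Zim1* and *Ppp1r9a* on the log2 scale, and the rise of *Snrpn* was 0.41. The 7 called genes are 19.4% of the 36, against 15.2 percent of all genes called in this comparison, so the number called is near the background. By direction, 2.78% of the imprinted genes were called higher against 7.19 percent of all genes, and 16.7% were called lower against 8.03 percent. Of the 36 log2 fold changes 26 were negative, and their median was -0.15, against -0.00 over all genes. An unadjusted p under 0.05 was reached by 11 genes (30.6%, against 29.6 percent of all genes). Libraries did not overlap between the groups in 13 genes (36.1%, against 33.2 percent of all genes). In 1 of them homozygotes were higher (16.6 percent of all genes) and in 12, or 33.3% of the 36, lower (16.5 percent of all genes). In an exact two-sided permutation test on one gene alone, 3 libraries against 3 have 0.1 as the smallest p. Once the dependence on gene length was taken out, the median of the imprinted genes was -0.09 against 0.01 over all genes, with 22 negative. The 36 genes have a median exonic length of 4207 bases, against 3669 over all annotated genes.

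**Figure D2:**
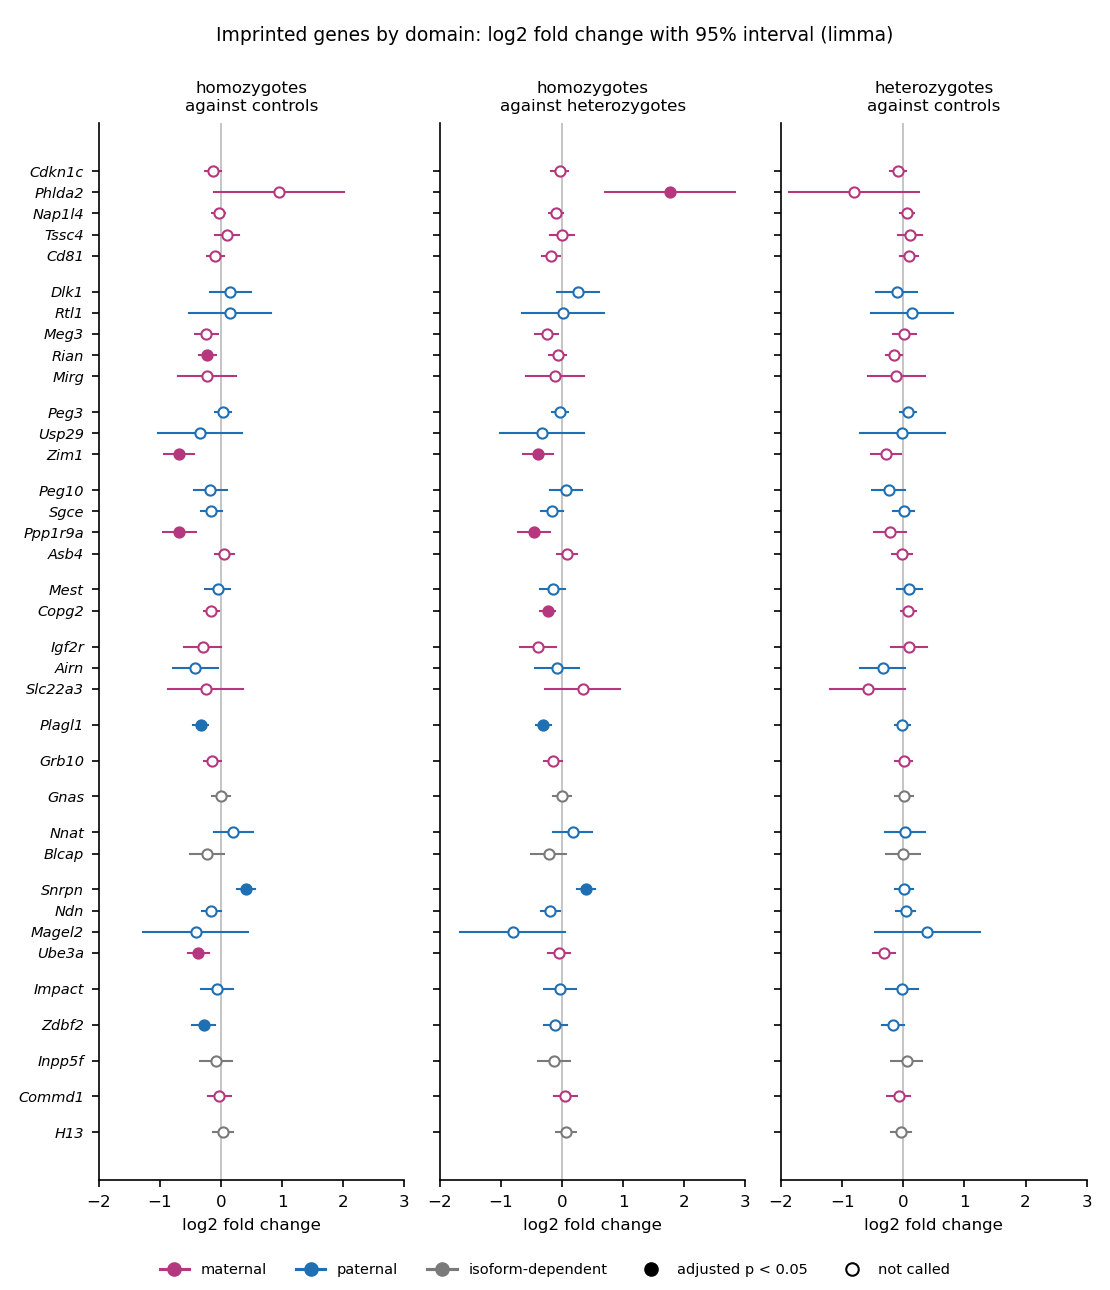
Log2 fold change (points) with 95% intervals (lines) of the 36 imprinted genes, grouped by domain, in the 3 pairwise comparisons of the genotypes. Colors give the expressed allele and filled points an adjusted p under 0.05; *Zim1*, *Ppp1r9a*, *Plagl1* and *Snrpn* are filled in both comparisons of homozygotes, and 0 points are filled in heterozygotes against controls.

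Both parental classes had negative medians. Over the 17 maternally expressed genes the median was -0.15 on the log2 scale, with 14 negative. Of the 17, 4 were called (23.5%, against 15.2 percent of all genes), all lower (8.03 percent of all genes). These were *Zim1*, *Rian*, *Ppp1r9a* and *Ube3a*, and for *Ppp1r9a* and *Ube3a* the maternal bias is known in some tissues only. The 15 paternally expressed genes also had a median of -0.15, with 10 negative and 3 called (20.0%, against 15.2 percent of all genes), *Snrpn* higher and *Plagl1* and *Zdbf2* lower. The 4 genes with an isoform-dependent allele had a median of -0.04, and 0 were called (0 by edgeR and by DESeq2 as well, and 0 at an unadjusted p under 0.05). Split by scope instead, the 12 genes with a bias known only in some tissues had a median of -0.09. The other 24 had a median of -0.15. The median deviation from the control mean over the 36 genes was -0.07, -0.09 and -0.14 in homozygote replicates 1, 2 and 3, and between -0.04 and -0.03 in the heterozygous libraries. All 3 homozygote pools were thus below all the others in this median.

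*Snrpn* (ENSMUSG00000000948, chr7:67127388-67285105) encodes SmN, a core protein of spliceosomal small nuclear ribonucleoproteins, and is expressed from the paternal allele. It stood at 53.7, 53.3 and 53.0 in controls (libraries of 8457617, 9654014 and 6698891 reads), 50.7, 54.7 and 56.2 in heterozygotes (libraries of 9896345, 7946683 and 4294537 reads), and 73.7, 66.4 and 73.2 in homozygote replicates 1, 2 and 3. All 3 homozygote libraries lay above all 6 others, while controls and heterozygotes overlapped. Means were 53.3 ± 0.362 (SD, n = 3), 53.8 ± 2.85 and 71.1 ± 4.05, a log2 fold change of 0.41 against controls (SE 0.07, limma adjusted p = 0.00174).

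*Ube3a* (ENSMUSG00000025326, chr7:66484122-66562097) belongs to the same domain and encodes a ubiquitin ligase that is maternally expressed in neurons and from both alleles elsewhere. Its value, with libraries in the same order here and below, was 110, 93.0 and 113 in controls, 83.4, 79.7 and 90.1 in heterozygotes and 76.6, 85.4 and 82.4 in homozygotes. Both genotypes with the Cre driver lay below every control library, and they overlapped with each other. Means were 105 ± 10.9 (SD, n = 3), 84.4 ± 5.27 and 81.5 ± 4.44, and the log2 fold change in homozygotes against controls was -0.37 (SE 0.08, limma adjusted p = 0.0091). Against heterozygotes it was -0.05, with an adjusted p of 0.738 (limma). *Ndn*, a MAGE family gene of the same domain, was lower in every homozygote library than in every control library, but its log2 fold change of -0.15 did not pass (limma adjusted p = 0.18). *Magel2*, of the same family, had a mean value of 1.29 in controls and 0.823 in homozygotes, with 92 reads over the 9 libraries, and its interval on the log2 scale ran from -1.27 to 0.45.

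*Zim1* (ENSMUSG00000002266, chr7:6628154-6649161) is a zinc finger gene of the *Peg3* domain, expressed from the maternal allele. It stood at 59.9, 54.6 and 75.7 in controls, 48.1, 48.1 and 58.5 in heterozygotes and 37.8, 42.4 and 36.7 in homozygotes. Homozygotes lay below all other libraries, and heterozygotes overlapped with controls. Means were 63.4 ± 10.9 (SD, n = 3), 51.6 ± 5.98 and 39.0 ± 3.02, and the log2 fold change against controls was -0.68 (SE 0.11, limma adjusted p = 0.00181). *Peg3*, the abundant paternally expressed gene of this domain, had a value of 972 ± 44.9 in controls and 998 ± 22.1 in homozygotes, with a log2 fold change of 0.04 and an interval from -0.09 to 0.17. The ratio of *Peg3* to *Zim1* within a library was 15.5 ± 1.86 in controls, 20.0 ± 2.22 in heterozygotes and 25.7 ± 1.38 in homozygotes. Among the 6 domains in which the highest paternal and the highest maternal gene were set against each other in this way, this was the one in which homozygotes and controls did not overlap. This depends on the genes taken. In the *Snrpn-Ube3a* domain *Ndn* was the paternal gene, and *Snrpn*, which rose while *Ube3a* fell, was not used. *Ube3a*, the maternal gene there, is expressed from both alleles outside neurons, as given above. *Peg3* was called higher when the trend with gene length was removed, and not otherwise. *Usp29*, whose start faces that of *Peg3*, was scarce, with means of 1.79 in controls and 1.33 in homozygotes.

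*Ppp1r9a* (ENSMUSG00000032827, chr6:4853004-5115661) encodes neurabin, an actin-binding scaffold of protein phosphatase 1, and its maternal bias is known in some tissues only. Its value was 61.4, 61.9 and 67.3 in controls, 52.7, 52.3 and 58.5 in heterozygotes and 45.1, 44.8 and 30.3 in homozygotes. The genotypes did not overlap, with controls highest and homozygotes lowest, and homozygote replicate 3 was far below the other two. Means were 63.5 ± 3.29 (SD, n = 3), 54.5 ± 3.45 and 40.0 ± 8.44, and the log2 fold change against controls was -0.68 (SE 0.12, limma adjusted p = 0.00305). Without homozygote replicate 3 it was -0.49, the smallest over 21 alternatives, all of which kept the call. The other genes of this domain were not called. *Peg10*, a retrotransposon-derived gene needed for the placenta, had a log2 fold change of -0.17, which was 0.01 without the control library of 8457617 reads. For *Sgce*, which encodes epsilon-sarcoglycan, it was -0.16 and for *Asb4*, a SOCS box gene, 0.06.

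*Plagl1* (ENSMUSG00000019817, chr10:12810497-12851500) had a value of 780, 760 and 765 in controls, 728, 747 and 806 in heterozygotes and 623, 624 and 592 in homozygotes. Every homozygote library was lower than every other library. Means were 768 ± 10.4 (SD, n = 3), 760 ± 40.4 and 613 ± 18.3, so that homozygotes stood at 79.8% of controls, with a log2 fold change of -0.33 (SE 0.06, limma adjusted p = 0.0024). The call was kept in all 21 alternatives, with log2 fold changes from -0.44 to -0.22.

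*Rian* and *Zdbf2* fell by less, and these calls were lost without some single libraries and under some other alternatives. Leaving out a control or a homozygote library also lowered the number called over all genes, from 2133 to between 1049 and 1871. *Rian* (ENSMUSG00000091793, chr12:110842155-110899919) is a maternally expressed noncoding RNA of the *Dlk1-Dio3* domain that hosts small nucleolar RNAs. Its value was 274, 261 and 241 in controls, 245, 223 and 230 in heterozygotes and 228, 230 and 208 in homozygotes, so that homozygotes lay below all controls and overlapped with heterozygotes. Its log2 fold change against controls was -0.22 (SE 0.06, limma adjusted p = 0.035). The call was lost without the control library of 8457617 reads (-0.18), without that of 9654014 reads (-0.21) and without homozygote replicate 3 (-0.18), and in 6 of 21 alternatives in all. *Zdbf2* (ENSMUSG00000027520, chr1:63319839-63361150), a paternally expressed zinc finger gene, had a value of 43.6, 43.3 and 49.8 in controls, 39.1, 37.8 and 44.4 in heterozygotes and 38.9, 36.98 and 36.1 in homozygotes. Homozygotes were again below all controls and overlapped with heterozygotes, with a log2 fold change of -0.28 (SE 0.09, limma adjusted p = 0.0402). This call was lost in 9 of 21 alternatives, among them leaving out any one of the 3 control libraries (-0.31, -0.32 and -0.22), homozygote replicate 2 (-0.27) or homozygote replicate 3 (-0.26). Once the dependence on gene length was taken out, the log2 fold changes were -0.10 for *Rian* and -0.09 for *Zdbf2*, neither of them called.

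**Figure D3:**
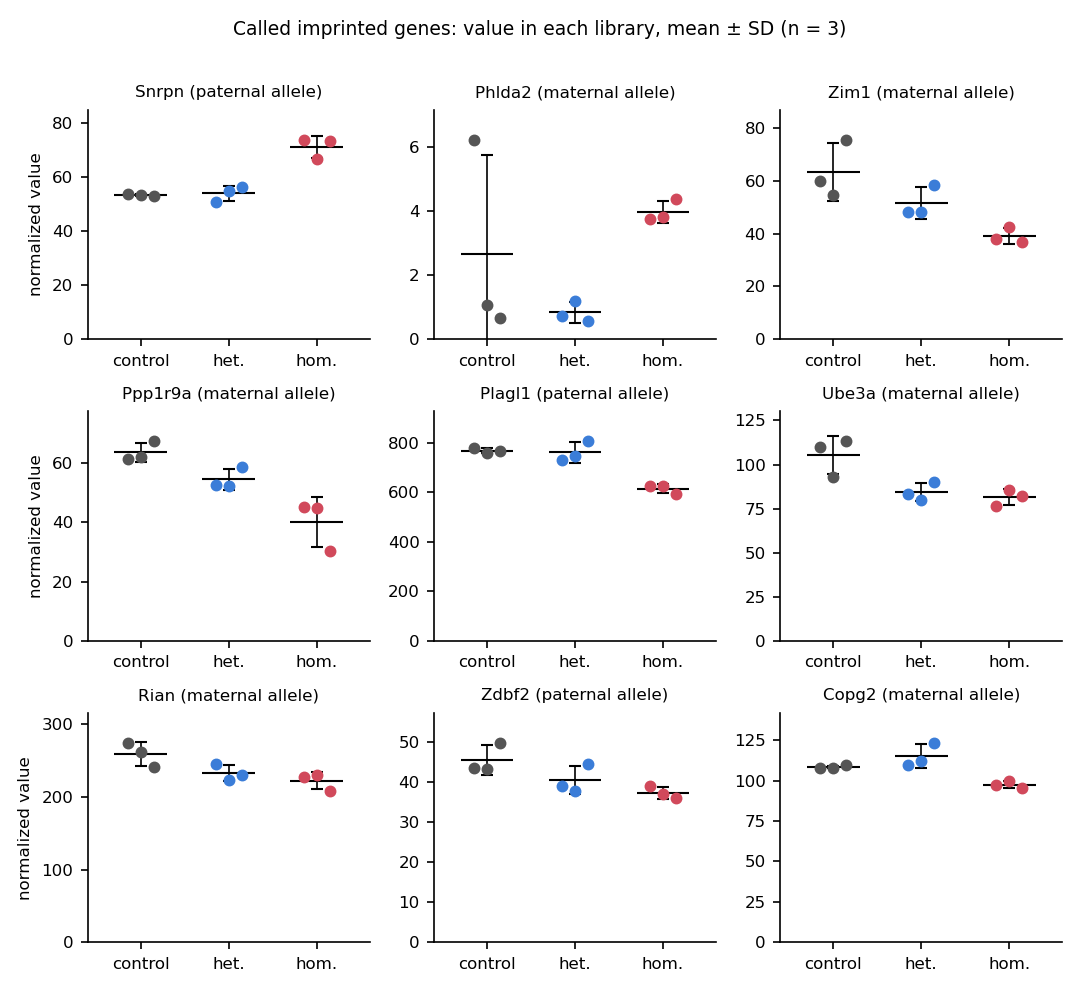
Normalized value in each library (points) of the 9 imprinted genes called in at least 1 comparison, with the mean (line) and SD (bar, cut at 0 for *Phlda2*) of each genotype, n = 3. *Snrpn* is higher in homozygotes (71.1 against 53.3 in controls), *Zim1*, *Ppp1r9a* and *Plagl1* are lower than in both other genotypes, *Ube3a*, *Rian* and *Zdbf2* are lower than in controls, and *Phlda2* and *Copg2* were called against heterozygotes.

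The *Kcnq1*, *Igf2r-Airn* and *Mest* domains held 10 measured genes and 0 called ones in this comparison (limma; 0 by edgeR and by DESeq2 as well; 15.2 percent of all genes were called), while 3 of the 10 (*Airn*, *Igf2r* and *Copg2*) had an unadjusted p under 0.05, against 29.6 percent of all genes. In the *Kcnq1* domain *Cdkn1c* had a value of 1213 ± 54.7 in controls and 1109 ± 14.0 in homozygotes (log2 fold change -0.13, limma adjusted p = 0.183), with no overlap between the groups, and was called lower with quantile normalization. *Nap1l4*, *Cd81* and *Tssc4* had log2 fold changes of -0.04, -0.09 and 0.11. In the *Dlk1-Dio3* domain the noncoding RNA *Meg3* was lower in all homozygote libraries (log2 fold change -0.24, limma adjusted p = 0.0877), with -0.14 without homozygote replicate 3. Without homozygote replicate 1 it was called (-0.32). The microRNA host *Mirg* had a log2 fold change of -0.23, and the paternally expressed *Dlk1*, a Notch pathway ligand, and *Rtl1* of 0.16 each, all 3 with intervals that span 0. Among homozygotes *Dlk1* was highest in replicate 1, where its ratio to *Rian* was 0.370, against 0.220 and 0.283 in replicates 2 and 3.

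In the *Igf2r-Airn* domain all 3 genes had negative values. *Airn*, the noncoding RNA that silences *Igf2r* on the paternal copy, had a log2 fold change of -0.42 (interval from -0.78 to -0.05, limma adjusted p = 0.118), and was called without homozygote replicate 2 (-0.63). For *Igf2r* it was -0.30 (limma adjusted p = 0.163), with -0.14 without homozygote replicate 3, and for *Slc22a3* -0.25. The value of *Igf2r* was 1813, 1775 and 2328 in controls and 1721, 1842 and 1267 in homozygotes, with homozygote replicate 3 lowest. The same replicate was lowest of all 9 libraries for *Mest* (2360 against 3003 and 3043 in the other 2 homozygote libraries) and for *Meg3* (92.9 against 121 and 108).

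At the single loci, *Plagl1* and *Zdbf2* were the called genes by limma. *Grb10* was 1629 ± 33.3 in controls and 1482 ± 86.6 in homozygotes, lower in all homozygote libraries but not called (log2 fold change -0.14, limma adjusted p = 0.181). *Gnas* was 1075 ± 86.0 and 1080 ± 64.7, with a log2 fold change of 0.01 and an interval from -0.14 to 0.16. *Nnat*, a membrane proteolipid gene, had a log2 fold change of 0.20 and its host *Blcap* one of -0.22, both with intervals that span 0. The log2 fold change was -0.06 for *Impact*, a regulator of translation, -0.08 for *Inpp5f*, a phosphoinositide phosphatase, -0.02 for *Commd1*, a gene of copper metabolism, and 0.03 for *H13*, which encodes signal peptide peptidase.

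Homozygotes were compared with heterozygotes because both carry the driver. In this comparison 6 of the 36 genes were called (16.7%, against 13.6 percent of all genes), which is near the background. The cardiomyocyte markers summed higher in every heterozygous library than in any homozygote library. All 6 erythroid and 4 of the 6 epicardial markers were called higher in homozygotes here too, with heterozygous sums from 22364 to 37452 and from 439 to 464. The part of these cell types in the calls was not tested. Of the 36 genes, 11 had an unadjusted p under 0.05 (30.6%, against 27.6 percent). *Phlda2* and *Snrpn* were higher in homozygotes (5.56% of the 36, against 6.87 percent of all genes), and *Plagl1*, *Zim1*, *Ppp1r9a* and *Copg2* were lower (11.1%, against 6.7 percent). The median over the 36 genes was -0.09, against -0.00 over all genes. Libraries did not overlap in 11 genes (30.6%, against 30.8 percent of all genes), 2 of them higher (15.3 percent of all genes) and 9 lower (15.5 percent of all genes). The homozygote libraries are the same as in the comparison with controls, so the calls the 2 comparisons have in common do not stand for separate observations. Log2 fold changes against heterozygotes were 0.40 for *Snrpn* (SE 0.07, limma adjusted p = 0.00235), -0.31 for *Plagl1* (SE 0.06, limma adjusted p = 0.00365), -0.46 for *Ppp1r9a* (SE 0.12, limma adjusted p = 0.0258) and -0.40 for *Zim1* (SE 0.11, limma adjusted p = 0.0363). *Snrpn* and *Plagl1* kept the call in all 21 alternatives. They were the only 2 genes called without the heterozygous library of 4294537 reads or without homozygote replicate 3. The call of *Zim1* was lost without any one of the heterozygous libraries or without homozygote replicate 1 or 3, with values from -0.44 to -0.30, as well as with edgeR (-0.39) and without the variance trend of limma. The call of *Ppp1r9a* was lost without any one heterozygous library (-0.48, -0.49 and -0.41) or without homozygote replicate 3 (-0.27). It was also lost without the variance trend and when the dependence on gene length was taken out (-0.34), where *Ndn* and *Cd81* were called lower.

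*Copg2* (ENSMUSG00000025607, chr6:30697554-30846794) encodes a subunit of the COPI vesicle coat and runs toward *Mest* on the opposite strand. Its value was 108, 108 and 109 in controls, 110, 112 and 123 in heterozygotes and 97.3, 99.8 and 95.2 in homozygotes. Homozygotes were below and heterozygotes above all controls, with means of 108 ± 0.858 (SD, n = 3), 115 ± 7.23 and 97.4 ± 2.27. The log2 fold change against heterozygotes was -0.24 (SE 0.06, limma adjusted p = 0.0182), and against controls it was -0.15 (limma adjusted p = 0.0964). The call against heterozygotes was lost without the heterozygous library of 4294537 reads (-0.19) and without homozygote replicate 3 (-0.22). The 2 genes share 904 exonic bases, 20.2% of the exonic length of *Copg2*, the library kit does not mark strand, and *Mest* stood at 2889 in controls against 108 for *Copg2*. Reads over the shared bases cannot be assigned to one of them from these values. *Mest* differed by -0.15 against heterozygotes and by -0.05 against controls (log2, limma adjusted p = 0.327 and 0.76). Both values include homozygote replicate 3, which as given above was the lowest of all libraries for *Mest*.

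*Phlda2* (ENSMUSG00000010760, chr7:150687450-150688446), a maternally expressed pleckstrin homology domain gene that restrains placental growth, was scarce. It had 53, 10 and 4 reads in controls, 7, 9 and 2 in heterozygotes and 16, 22 and 48 in homozygotes, or values of 6.23, 1.07 and 0.658, of 0.736, 1.198 and 0.577, and of 3.75, 3.81 and 4.37. The table lists no gene that reached 1 unit in fewer than 3 libraries, a limit that *Phlda2* met in 6 libraries of the 3 genotypes. Homozygotes were above all heterozygous libraries, and above all controls except the control library of 8457617 reads, which held the highest value of all. Means were 2.65 ± 3.10 (SD, n = 3), 0.837 ± 0.323 and 3.97 ± 0.342. The log2 fold change was 1.77 against heterozygotes (SE 0.49, limma adjusted p = 0.031) and 0.96 against controls (limma adjusted p = 0.218). Without that control library the change against controls was 1.73 and was called (limma adjusted p = 0.00475). The call against heterozygotes was lost in 7 of 20 alternatives, among them leaving out the heterozygous library of 9896345 reads (1.72), that of 4294537 reads (1.62) or homozygote replicate 1 (1.803), 2 (1.79) or 3 (1.70).

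The control library with the most *Phlda2* also held the most *Peg10* and the most RNA of liver and endoderm markers. *Peg10* was 317 in that library, 212 and 224 in the other controls and between 190 and 232 in the 6 libraries with the driver. Of the 5 markers 4 were measured (*Foxa2* was not in the table), and their summed value was 774 in that library, with 595 from alpha-fetoprotein (*Afp*), 115 from *Apoa1* and 63.4 from *Ttr*, while *Alb* was at 0.175. The sum was 56.6 and 62.9 in the other controls, between 4.84 and 13.8 in heterozygotes, and 60.9, 5.92 and 70.2 in homozygote replicates 1, 2 and 3. Homozygote replicate 2, with a sum of 5.92, had a *Phlda2* value of 3.81, between those of the other homozygotes. The part of such cells in the control value of *Phlda2* was not tested.

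**Figure D4:**
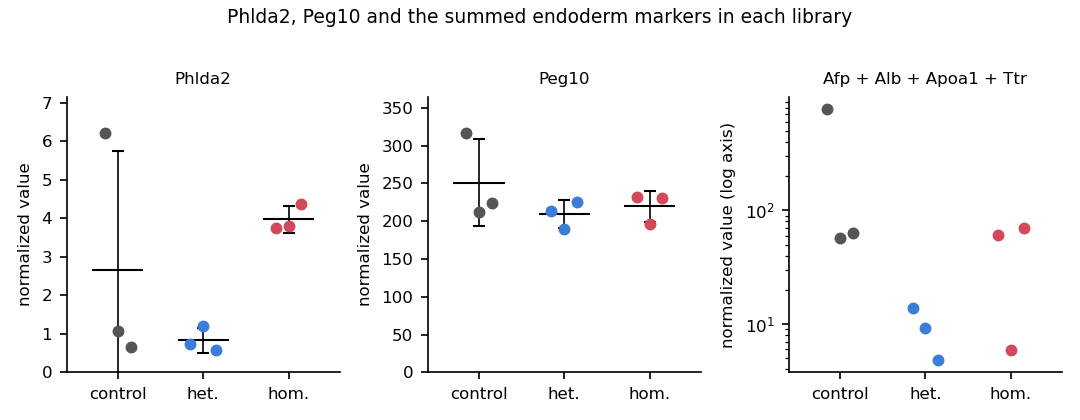
Values of *Phlda2* and *Peg10* and the summed value of the liver and endoderm markers *Afp*, *Alb*, *Apoa1* and *Ttr* (log axis) in each library; lines and bars show the mean and SD of each genotype for the first 2 panels, cut at 0 for *Phlda2*. The same control library is highest in all 3 panels (6.23, 317 and 774).

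Heterozygotes were compared with controls to see whether loss of 1 *Ctcf* allele, together with the driver, was enough to change imprinted genes. Of the 36 genes, 0 were called (limma, and 0 by edgeR and DESeq2), against 0.143 percent of all genes (0.0928 percent higher and 0.05 percent lower), and 3 (*Ube3a*, *Zim1* and *Rian*) had an unadjusted p under 0.05, or 8.33% against 7.37 percent of all genes. *Ube3a* came closest, with a log2 fold change of -0.32 (SE 0.08, limma adjusted p = 0.264) and all heterozygous libraries below all controls. Its adjusted p lay between 0.114 and 0.722 over the alternatives. Libraries did not overlap in 7 genes (19.4%, against 14.3 percent of all genes). Of these, *Ube3a*, *Ppp1r9a*, *Airn* and *Slc22a3* were on the lower side in heterozygotes (6.93 percent of all genes) and *Cd81*, *Copg2* and *Rtl1* on the higher side (7.41 percent). The value of *Airn* was 25.3, 27.9 and 25.8 in controls and 17.5, 20.2 and 25.3 in heterozygotes, which is -0.33 on the log2 scale (limma adjusted p = 0.703). The median over the 36 genes was -0.01.

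Other imprinted genes and the machinery of imprinting were examined beside these 36. Of 46 further imprinted genes 35 were measured, 1 of them in 2 rows. In homozygotes against controls 7 of the 36 rows were called (19.4%, against 15.2 percent of all genes), which is near the background. This list was not split by the tissues in which a parental bias is known. A call in it therefore does not show that the gene is imprinted in the heart. *Dcn*, the matrix proteoglycan decorin, rose from 56.4 ± 2.70 to 73.5 ± 2.16 (log2 fold change 0.38, limma adjusted p = 0.0019), *Tspan32* by 0.53 (adjusted p = 0.0224) and *Calcr*, the calcitonin receptor, by 0.97 (adjusted p = 0.0236). *Qpct*, a glutaminyl cyclase, changed by -0.57 (limma adjusted p = 0.0129), *Phactr2* by -0.37 (adjusted p = 0.0177), *Ddc*, DOPA decarboxylase, by -0.55 (adjusted p = 0.0231) and *Gab1*, a receptor adaptor, by -0.24 (adjusted p = 0.0242). The median of this list was 0.07, and against heterozygotes it was -0.04, with 4 rows called higher (11.1%, against 6.87 percent of all genes) and 3 lower (8.33%, against 6.7 percent). Of 25 imprint regulators 21 were measured. The share called in either direction in homozygotes against controls was 14.3%, below the 15.2 percent of all genes. Of the 21, 0 were called higher and 3 lower (14.3%, against 8.03 percent of all genes). These were the de novo DNA methyltransferase *Dnmt3a*, from 287 ± 23.6 to 221 ± 13.7 (log2 fold change -0.37, limma adjusted p = 0.0026), and the 5-methylcytosine oxidases *Tet3* (-0.34, adjusted p = 0.0055) and *Tet1* (-0.37, adjusted p = 0.0265). The maintenance methyltransferase *Dnmt1* had a log2 fold change of -0.01 and the imprint protector *Zfp57* one of 0.09, neither of them called. Against heterozygotes 1 of the 21, *Dnmt3a*, was called lower (4.76%, against 6.7 percent).

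The nearest 2 measured genes on each side of every imprinted domain or locus that were in no list numbered 64 in all. Their median distance was 159 kb, with a range from 0.016 to 4596 kb, so that not all are local. *Igf2as*, antisense to *Igf2*, was counted among them beside the *Kcnq1* domain. They were called at a rate of 17.2% in homozygotes against controls, close to the 15.2 percent of all genes. Of them 8 were higher (7.19 percent of all genes) and 3 lower (8.03 percent). The call with the smallest adjusted p was *Fuca2*, an alpha-L-fucosidase gene 368 kb from *Plagl1*, which rose from 28.6 ± 1.78 to 64.5 ± 6.56 (log2 fold change 1.16, SE 0.09). The next were *Eef1b2* (0.30) and *Klf7* (-0.55) on the 2 sides of *Zdbf2*, at 92.8 kb and 715 kb. Then came *Cpa1* (0.84) at 78.2 kb from the *Mest* domain, *Fignl1* (0.34) at 122 kb from *Grb10* and *Mrpl18* (0.22) at 51.2 kb from the *Igf2r-Airn* domain.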

How the data were processed

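Whole E10.5 hearts (10.5 days after the plug) were used for poly(A) RNA sequencing in pools of 6, with 3 libraries per genotype. The submitters' processing notes name CASAVA 1.8, cutadapt 1.6.1, RSEM 1.20, Bowtie2 0.12.7 and limma, and the study gives NCBIM37 with Ensembl 65 genes. The standard kit does not mark strand. The deposited table holds normalized signal values per gene, which the authors made by TMM scaling, and each value is (whole reads + 0.5) times a constant of its library. Within 0.001 reads, 100% of the values gave back whole reads. The control and heterozygous columns could be mapped to their genotype only, so their total reads serve as their names (4294537 to 11629365 over all 9, where more reads give smaller counting errors), and homozygote replicates by their labels.

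Group means were compared with limma 3.58.1 in R 4.3.3, with a variance trend, on log2(value + 0.5), in one fit of 9 libraries, with Benjamini-Hochberg adjustment over 14011 genes and a threshold of 0.05. Fold changes are on this log2(value + 0.5) scale, which understates the change of scarce genes. The limma p-values weigh a difference of group means against the spread between pools, shared over the genotypes and drawn toward the trend over all genes. The spread between single hearts was not measured. Alternatives were other pseudocounts, filters, scalings, no trend, removal of the trend with gene length, a threshold of 0.01, a replicate block, leaving out each library, and edgeR 4.0.16 and DESeq2 1.42.0 on the recovered reads. On simulated data for homozygotes against controls over 14011 genes, 47 of 100 genes changed by 0.5 and 70 of 100 changed by 1 (log2) were called, with 3 unchanged genes called. In the data 2133 genes were called, far more than the simulation changed, so these rates need not hold for the data. edgeR called 2212 genes in homozygotes against controls. The members, gene lists and tests were chosen with earlier results of these data known. Every measured member is named, called members with their value in each library. Of the further imprinted genes and imprint regulators, those called against controls are named, up to 8 by the smallest adjusted p, and of the flanking genes 6. *Dnmt1* and *Zfp57* were named after their values were seen. Levels per kb divide by the union of exons of each gene. Promoters and their sequences are from RefSeq (GRCm38.p6), searched by exact letters on both strands.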

Additional observations from a re-analysis of the deposited data

How the results depend on the processing

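In homozygotes against controls 7 imprinted genes were called, and 5 to 8 when any one library was left out. The count was 4 with limma without the variance trend (*Snrpn*, *Zim1*, *Plagl1* and *Ppp1r9a*), 5 at an adjusted p under 0.01, 7 with edgeR and 6 with DESeq2. In homozygotes against heterozygotes 6 were called, and 2 to 7 when any one library was left out. There were 2 at an adjusted p under 0.01, 2 without the variance trend, 3 without the heterozygous library of 9896345 reads, 2 without that of 4294537 reads and 2 without homozygote replicate 3, and 4 with edgeR and 6 with DESeq2. In heterozygotes against controls 0 were called under every alternative. No fold change of the 9 called genes that passed the threshold changed sign under any alternative. The causes of these losses were not tested. With the replicate number as a block, 7, 7 and 0 genes were called in the 3 comparisons, with *Meg3* lower in both comparisons of homozygotes and *Zdbf2* lost (adjusted p = 0.0537). Same-numbered libraries did not deviate together (correlations over genes from -0.108 to 0.0987), so the numbers were not taken as pairs. Genes with few reads, such as *Phlda2* with 171 and *Rtl1* with 75 over the 9 libraries, have wide intervals.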
